A study of Mus musculus with 6 samples.

Results

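The lambda light chain repertoire of naïve follicular (FO) B cells was compared between 1 iB-μMT mouse and its B6 control. All rows of the lambda tables were taken, without a filter, which gave 51 clonotypes for the iB-μMT mouse, 42 for the B6 mouse and thus 93 of the 18182 clonotypes in the heavy, kappa and lambda tables of both mice. A clonotype was taken as a CDR3 nucleotide sequence that differs from the others, CDR3 being the stretch formed where a V gene segment is joined to a J gene segment, together with its best V, J and C gene hits. The study asked whether B cells regenerated from pluripotent stem cells carry B cell receptors as varied as those of natural B cells. The iB-μMT mouse was a μMT recipient (B6.129S2-Ighmtm1Cgn/J, which lacks mature B cells because the membrane form of the mu heavy chain is disrupted), 8 to 10 weeks old and irradiated with 5 Gy. It received 5000000 hematopoietic progenitors made from iR9X2 embryonic stem cells, a C57BL/6 line with a GFP cassette at Hipp11 and a doxycycline-inducible Runx1-Hoxa9-Lhx2 cassette with rtTA at Rosa26, and it drank doxycycline (1 mg/mL). The spleen was taken 4 weeks after transplantation. The control was 1 C57BL/6 mouse, for which no age, irradiation or doxycycline is given. From each spleen 100000 cells were sorted by surface markers that included IgD++IgM+CD23++CD21+ and the absence of other lineages, a gate that did not include GFP, and the libraries hold immunoglobulin transcripts only, so that the labelled cell type could be checked no further than that every row had lambda V, J and C hits. Each group had 1 library, so differences have no replicate check, no test was made, and the values below compare these libraries and not the conditions.

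An antibody light chain is either kappa or lambda, and each B cell generally expresses a single light chain. In mice the kappa locus usually rearranges before lambda, and lambda-bearing cells are a small part of the mature pool. The RAG recombinase cuts beside a V and a J segment, nucleases trim the ends, hairpin opening can leave short palindromic (P) bases, and terminal deoxynucleotidyl transferase (TdT) can insert untemplated bases before the ends are ligated. The mouse lambda locus is small, with J segments that each lie just before a C gene of their own, and so the join itself carries much of its sequence variety.

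All 9 lambda genes in the tables matched the RefSeq table of mouse assembly GRCm38.p6 (the labels name mm10), where they lie on chromosome 16 and are read from high to low coordinates. IGLV2 is at chr16:19260403-19260844 and IGLV3 at chr16:19241208-19241679, both upstream of IGLJ2 at chr16:19200198-19200235 and IGLC2 at chr16:19198536-19198852. IGLV1 lies further downstream, at chr16:19085017-19085460, followed by IGLJ3 at chr16:19067041-19067078, IGLC3 at chr16:19065365-19065681, IGLJ1 at chr16:19063225-19063262 and IGLC1 at chr16:19061752-19062071. Thus IGLJ2 is upstream of IGLV1 and downstream of the other V genes. The germline ends that the segments bring to CDR3 were read from clonotypes whose segments the deposited alignments gave as untrimmed, and not from the genome. They are shown because the joins below are built from them.
IGLV1 end: tgtgctctatggtacagcaaccatttc
IGLV2 end: tgtgctctatggtacagcacccatt
IGLV3 end: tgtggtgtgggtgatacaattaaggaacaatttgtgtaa
IGLJ1 start: ctgggtgttc
IGLJ2 start: ttatgttttc
IGLJ3 start: gtttattttc
Over the first 25 bases, counted from the 5′ end of CDR3, the IGLV1 and IGLV2 ends had 1 difference, A20C (IGLV1 base first), and IGLV1 ran on for 2 bases. The IGLV3 end was longer, 39 bases, and its last 3 bases spelled a stop codon in frame.

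The clonotypes were numbered by the larger of their read shares in the libraries, from high to low. The 12 that were among the 10 largest of either library are shown because they hold nearly all reads, with the bases that follow the V alignment in capitals.
clonotype 1, IGLV1-IGLJ1: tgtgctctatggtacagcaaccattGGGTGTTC
clonotype 2, IGLV2-IGLJ2: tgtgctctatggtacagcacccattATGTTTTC
clonotype 3, IGLV3-IGLJ2: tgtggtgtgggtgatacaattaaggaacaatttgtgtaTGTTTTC
clonotype 4, IGLV1-IGLJ1: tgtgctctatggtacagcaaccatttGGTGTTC
clonotype 5, IGLV1-IGLJ1: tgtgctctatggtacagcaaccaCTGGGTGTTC
clonotype 6, IGLV1-IGLJ1: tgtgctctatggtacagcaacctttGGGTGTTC
clonotype 7, IGLV1-IGLJ3: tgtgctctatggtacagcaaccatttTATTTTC
clonotype 8, IGLV1-IGLJ1: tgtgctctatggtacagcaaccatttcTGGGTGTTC
clonotype 9, IGLV2-IGLJ2: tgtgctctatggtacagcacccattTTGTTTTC
clonotype 10, IGLV1-IGLJ3: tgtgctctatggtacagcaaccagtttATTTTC
clonotype 11, IGLV1-IGLJ1: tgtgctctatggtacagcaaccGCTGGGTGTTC
clonotype 12, IGLV2-IGLJ1: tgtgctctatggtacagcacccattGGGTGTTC
All 12 had 0 inserted bases by the deposited alignment positions. In clonotypes 6 and 10 the V alignment ran across a mismatch or gap near its end.

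The lambda libraries held 269712 reads in the iB-μMT library and 271108 in the B6 library, and the median clonotype had 225 and 320.5 reads, respectively. No clonotype of the iB-μMT mouse against 2 of the B6 mouse were single reads. If each read were an independent draw, a count of 0 reads would allow a share of up to 0.00111% of reads in either library. This is no bound on the share of cells. Since no molecular identifiers are described, reads cannot be taken as separate molecules, and the 95% intervals below are exact (Clopper-Pearson) intervals over clonotypes and cover counting error only. The tables left gaps in the clone numbers, 568 of 619 numbers (91.8%) in the iB-μMT lambda table and 1389 of 1431 (97.1%) in the B6 lambda table, against 30.8% and 31.1% for kappa, and what the unlisted numbers held is not given in the sources used here.

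The same combination led both repertoires, and IGLV1 was joined to IGLJ1 or IGLJ3 in every IGLV1 clonotype. IGLV1-IGLJ1-IGLC1 held 56.9% of lambda reads (20 clonotypes) in the iB-μMT library and 66.9% (16 clonotypes) in the B6 library. IGLV2-IGLJ2-IGLC2 held 22.1% (8 clonotypes) and 18.8% (6 clonotypes). IGLV3-IGLJ2-IGLC2 held 13.1% and 10.2%, with 10 clonotypes in each mouse. IGLV1-IGLJ3-IGLC3, the other join open to IGLV1 by deletion of the DNA between the segments, held 5.95% (8 clonotypes) and 2.93% (5 clonotypes). The rest were rare. IGLV2-IGLJ1-IGLC1 held 1.89% of reads (3 clonotypes) in the iB-μMT library and 0.558% (2 clonotypes, 1 of them a single read) in the B6 library. IGLV3-IGLJ3-IGLC3 was seen in 1 clonotype of each mouse, with 0.0152% and 0.212% of reads. IGLV3-IGLJ1-IGLC1 was seen in the iB-μMT mouse alone (1 clonotype, 0.0501% of reads) and IGLV2-IGLJ3-IGLC3 in the B6 mouse alone (2 clonotypes, 0.380% of reads).

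The lower read share of IGLV1-IGLJ1-IGLC1 in the iB-μMT mouse was not mirrored in the number of clonotypes. The read shares differed by -9.95 percentage points (iB-μMT minus B6), whereas 39.2% (95% interval 25.8 to 53.9) and 38.1% (23.6 to 54.4) of clonotypes had this combination, a difference of 1.12 points. Clonotype 1 differed by -7.17 points and clonotype 6 by -3.13 points, which together exceed the whole gap, so in size it lay in these clonotypes. Of the 12 joins of this combination found in both mice, 10 had the lower read share in the iB-μMT mouse and 2 the higher. Outside clonotypes 1 and 6 these differences were small, the largest being that of clonotype 4, 1.30 points higher in the iB-μMT mouse. Without the largest clonotype of each library the combination still had the lower read share in the iB-μMT mouse, 39.5% against 48.2%. This remainder still held clonotype 6. The read and clonotype differences had opposite signs for IGLV3-IGLJ2-IGLC2 too, with 19.6% and 23.8% of clonotypes.

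**Figure D1:**
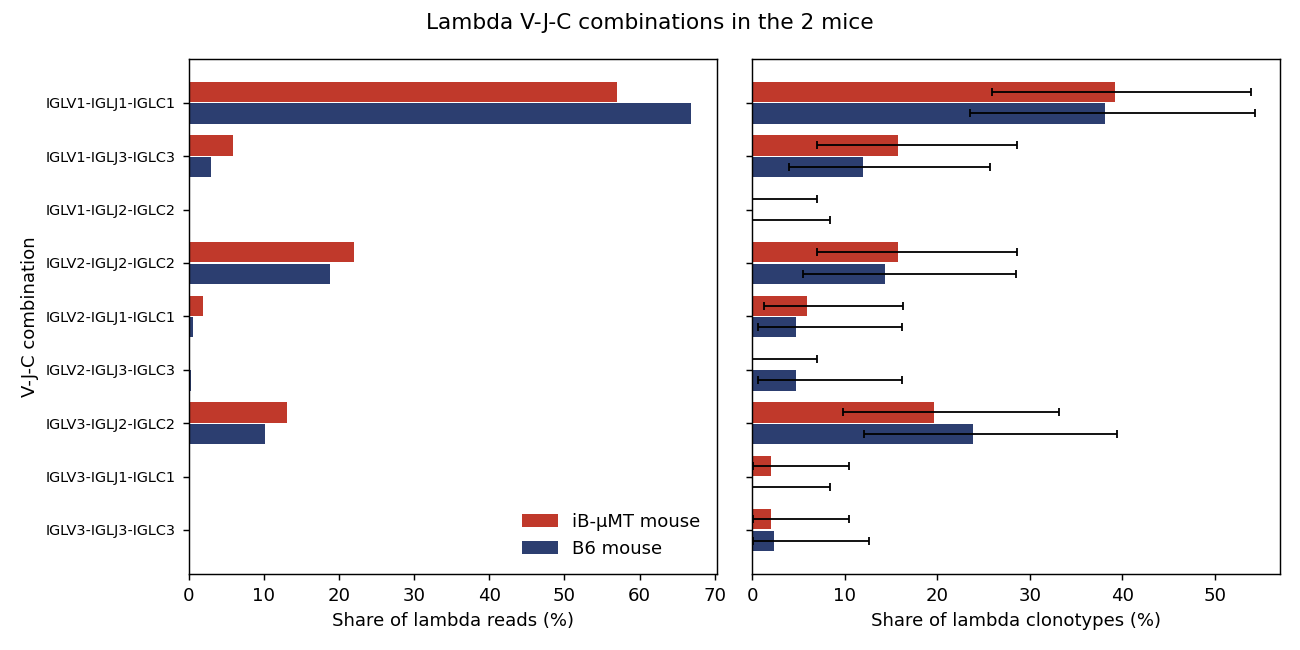
Share of lambda reads (left, %) and of lambda clonotypes (right, %) for each V-J-C combination in the iB-μMT and B6 mice, with exact 95% intervals over clonotypes as error bars on the right; read shares have no error bar since each group had 1 library. IGLV1-IGLJ1-IGLC1 is the longest bar in both panels, 56.9% and 66.9% of reads, and the clonotype intervals of the mice overlap for every combination.

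The joins followed the germline order in both mice. Of 28 IGLV1 clonotypes in the iB-μMT library and 21 in the B6 library, 0 used IGLJ2, which allows shares of up to 10.7% and 14.3% of IGLV1 clonotypes, respectively. Of the IGLV1 reads, 90.5% in the iB-μMT library and 95.8% in the B6 library used IGLJ1, which lies 21.8 kb from IGLV1, and 9.46% and 4.20% used the nearer IGLJ3, at 17.9 kb. IGLV2 and IGLV3 used the nearest J mostly. IGLJ2, 60.2 kb from IGLV2, took 92.1% and 95.3% of IGLV2 reads, and IGLJ2, 41.0 kb from IGLV3, took 99.5% and 98.0% of IGLV3 reads. IGLJ1 and IGLJ3, 174 to 197 kb away, took the remainder. The J and C hits carried the same number in 51 of 51 and 42 of 42 clonotypes, as in the paired J-C order of the locus. The assignment of IGLV1 against IGLV2 rested on the whole V alignment, in which the best hit scored 99.2 to 214.3 above the next where a second hit was listed, and no V hit was tied. Clonotype 48 (95 reads, in the iB-μMT mouse alone), whose best hits were IGLV2 and IGLJ2, is shown because inside CDR3 it had a mismatch to IGLV2 and none to IGLV1, its second hit, with the bases after the V alignment in capitals.
clonotype 48, IGLV2-IGLJ2: tgtgctctatggtacagcaaccatGTTTTC

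Both repertoires were dominated by the same few joins. The 5 largest clonotypes were the same 5 in both mice and held 82.5% of reads in the iB-μMT library and 82.0% in the B6 library. Clonotype 1 had 77900 reads (28.9%) in the iB-μMT library and 97736 (36.1%) in the B6 library. Clonotype 2 had 54744 reads (20.3%) and 44593 (16.4%). Clonotype 3 had 33059 reads (12.3%) and 25445 (9.39%). These 3 were the largest join of IGLV1-IGLJ1, IGLV2-IGLJ2 and IGLV3-IGLJ2, respectively, and clonotypes 2 and 3 held nearly all of their combination. Clonotype 2 made up 92.0% and 87.3% of IGLV2-IGLJ2-IGLC2 reads, and clonotype 3 made up 93.7% and 92.2% of IGLV3-IGLJ2-IGLC2 reads, whereas clonotype 1 made up 50.7% and 53.9% of IGLV1-IGLJ1-IGLC1 reads. The other large IGLV1-IGLJ1 joins were clonotype 4, with 30286 (11.2%) and 26923 reads (9.93%), and clonotype 5, with 26610 (9.87%) and 27575 reads (10.2%). In each library 11 clonotypes reached 1% of reads, and they held 94.4% and 95.3% of reads.

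Of 65 distinct lambda clonotypes, 28 were found in both mice with the same CDR3 nucleotides, V and J. They made up 54.9% (95% interval 40.3 to 68.9) of iB-μMT clonotypes and 66.7% (50.5 to 80.4) of B6 clonotypes, and they held 97.8% and 98.6% of reads. For kappa the shared part was 49.2% and 52.7% of clonotypes with 91.7% and 93.5% of reads, not far from lambda. For heavy it was 0.436% and 0.501% of clonotypes with 0.234% and 0.392% of reads. All 28 shared lambda clonotypes were deeply covered, with at least 89 reads in the iB-μMT library and 41 in the B6 library. None was a single read in either library. For kappa 3 of 894 clonotypes found in both mice were single reads in a library, and for heavy 26 of 34 (76.5%). The part that transfer of reads between libraries could have in the sharing was not tested.

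Within the shared clonotypes the read shares were close for most joins. Across the 28 clonotypes, which were selected for being in both libraries, log10 read shares had a Pearson r of 0.954 and a Spearman rho of 0.913, given as a description. The median ratio of read shares (iB-μMT over B6) was 1.03, with 14 clonotypes higher in each mouse, and 19 lay within 2-fold. Ratios above 2 were found for 7 clonotypes (25% of the 28) in the direction of the iB-μMT mouse and for 2 (7.14%) in the direction of the B6 mouse. The background for either direction was 32.1% in lambda (9 of 28), 32.8% in kappa (293 of 894) and 91.2% in heavy (31 of 34), so the lambda share was near that of kappa.

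**Figure D2:**
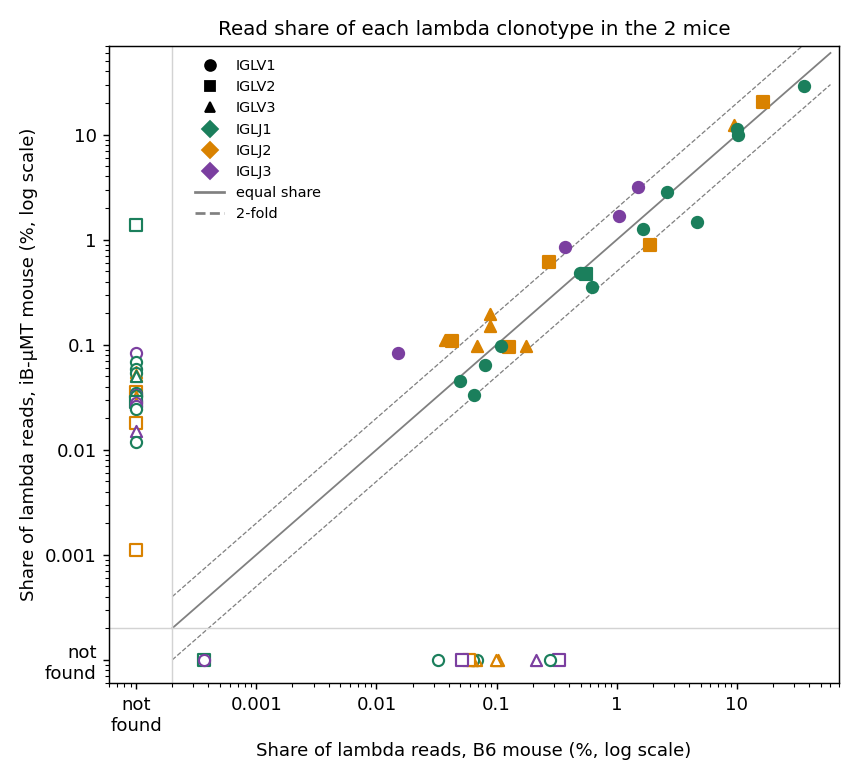
Read share (%, log scales) of each lambda clonotype in the B6 mouse (horizontal) and the iB-μMT mouse (vertical), with shape for the V gene and colour for the J gene; open symbols in the margins are clonotypes found in a single mouse. Of the 28 shared clonotypes 19 lie between the dashed 2-fold lines, and the largest clonotype seen in a single mouse, an open green square at 1.39%, is from the iB-μMT mouse.

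The shared clonotypes differed by combination. The 4 shared IGLV1-IGLJ3 joins were all higher in the iB-μMT mouse, with ratios of 1.62 to 5.52. Clonotype 7, the largest of them, had 8516 reads (3.16%) in the iB-μMT library and 4072 in the B6 library, a ratio of 2.10. Clonotype 10 had 4558 (1.69%) and 2820 reads (1.04%). Clonotype 13 had 2288 and 1012 reads (ratio 2.27), and clonotype 31 had 225 and 41 reads, the largest ratio of all at 5.52. Of the 12 shared IGLV1-IGLJ1 joins, 2 were higher in the iB-μMT library and 10 in the B6 library, with ratios of 0.321 to 1.13 and a median of 0.844. Read shares sum to the whole library, so a lower share of the largest join raises the others, and these directions within a library are not independent of each other.

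The joins to IGLJ2 were mixed. Of the 6 shared IGLV3-IGLJ2 joins, 5 were higher in the iB-μMT mouse, with a median ratio of 1.55, and of the 5 shared IGLV2-IGLJ2 joins, 3 were higher there, with a median ratio of 1.23. Clonotype 25, an IGLV3-IGLJ2 join, had 302 and 100 reads (ratio 3.04), and clonotype 27, an IGLV2-IGLJ2 join, had 291 and 116 reads (ratio 2.52). In the other direction the largest ratio (B6 over iB-μMT) was that of clonotype 6, an IGLV1-IGLJ1 join with 3995 reads (1.48%) in the iB-μMT library and 12495 (4.61%) in the B6 library, a ratio of 3.11. Clonotype 9, an IGLV2-IGLJ2 join, had 2403 reads (0.891%) and 5141 (1.90%), a ratio of 2.13, and clonotype 37, an IGLV1-IGLJ1 join, had 89 and 175 reads, a ratio of 1.96. Clonotypes 6, 9 and 37 each differed by 1 mismatch from a join of the same genes, clonotypes 1, 2 and 14, respectively. Those had at least 10 times more reads in the iB-μMT library, but less than 10 times more in the B6 library. Clonotypes 6, 9 and 37 were picked for a low read share in the iB-μMT library relative to B6, so this difference was not independent of that choice. Clonotypes 25, 27 and 31 had no such neighbour in the iB-μMT library, and the part of sequence errors was not tested.

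Clonotypes found in a single mouse were many but small. The 23 of the iB-μMT mouse held 2.19% of its reads with a median of 87 reads, and the 14 of the B6 mouse held 1.43% with a median of 177.5 reads. Fewer than 100 reads were found for 15 of the 23 and 3 of the 14. Clonotype 12 stood apart, an IGLV2-IGLJ1 join with 3750 reads (1.39%, the tenth by size) in the iB-μMT library and 0 in the B6 library, while the next largest clonotype found in that mouse alone had 223 reads. Clonotype 12 had the same letters as clonotype 1 but for 1 mismatch, and it encoded the same amino acids as clonotype 16, an IGLV2-IGLJ1 join with 1282 reads in the iB-μMT library and 1511 in the B6 library. Of those found in the B6 mouse alone, the largest were clonotype 18 (IGLV2-IGLJ3, 890 reads), clonotype 19 (IGLV1-IGLJ1, 753 reads) and clonotype 20 (IGLV3-IGLJ3, 575 reads). Of the clonotypes found in a single mouse, 5 of 23 and 2 of 14 were 1 mismatch from a clonotype of the same library that had at least 10 times more reads. The same held for 5 and 3 of the 28 shared clonotypes in the iB-μMT and B6 libraries, so this was not particular to clonotypes of a single mouse. The part of sequence errors was not tested.

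Most lambda joins had no inserted base. Inserted bases, those between the end of the V alignment and the start of the J alignment, were found in 12 of 51 clonotypes of the iB-μMT mouse (23.5%, 95% interval 12.8 to 37.5) against 9 of 42 of the B6 mouse (21.4%, 10.3 to 36.8), and these clonotypes held 0.557% and 0.619% of reads. In kappa 18.3% and 19.5% of clonotypes had inserted bases, with 4.44% and 4.86% of reads. The insertions were short. In the iB-μMT mouse 6 clonotypes had 1 base, 4 had 2 bases and 2 had 3 bases. In the B6 mouse 3 had 1 base, 3 had 2 bases and 3 had 3 or more, the longest being 10 bases in clonotype 64, a single read. Its inserted bases began with TTGTTTTC, the letters that end clonotype 9, an IGLV2-IGLJ2 join, and its best J hit was IGLJ1. Whether its J gene was assigned wrongly was not tested. Insertions were found in each V gene, with 7 of 28 IGLV1, 2 of 11 IGLV2 and 3 of 12 IGLV3 clonotypes in the iB-μMT mouse, and 4 of 21, 3 of 10 and 2 of 11 in the B6 mouse.

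The count of insertions depends on where the V alignment ends. Palindromic bases were looked for on the J side only, so any at an intact V end were counted as inserted. The same holds for any bases of a V end longer than the alignments place it. Among clonotypes with no inserted base, 5 of the iB-μMT library and 6 of the B6 library, clonotypes 6 and 10 in both, had a V alignment with a mismatch or gap inside CDR3. With these counted too, the clonotypes were 17 of 51 (33.3%) and 15 of 42 (35.7%), and they held 3.96% and 6.80% of reads. Inserted bases were present in 5 of the 28 shared clonotypes (17.9%), 7 of the 23 found in the iB-μMT mouse alone (30.4%, 95% interval 13.2 to 52.9) and 4 of the 14 found in the B6 mouse alone (28.6%, 8.39 to 58.1), with wide intervals that overlap.

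Examples with the inserted bases in capitals show their size against the germline ends.
clonotype 24, IGLV2-IGLJ2: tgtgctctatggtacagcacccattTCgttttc
clonotype 40, IGLV2-IGLJ2: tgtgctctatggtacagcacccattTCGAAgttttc
clonotype 52, IGLV1-IGLJ1: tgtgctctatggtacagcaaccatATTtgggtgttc
Clonotype 24 had 258 reads in the iB-μMT library and 346 in the B6 library, clonotype 40 had 160 reads in the B6 mouse alone, and clonotype 52 had 87 reads in the iB-μMT mouse alone. Of the 4 distinct IGLV2 clonotypes with an untrimmed V and at least 2 inserted bases, 3 began the insertion with TC, the letters by which the IGLV1 end exceeds the IGLV2 end. Among untrimmed IGLV3 clonotypes with inserted bases (22, 46 and 53) each insertion began with C. Among those of IGLV1 it was G in clonotypes 56 and 58 and T in clonotype 33. Whether these letters were inserted, palindromic or read from a longer V end was not tested.

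Overlaps between the V and J alignments were more common than insertions. In 29 of 51 (56.9%) and 25 of 42 (59.5%) clonotypes the V and J alignments overlapped, so that some bases could come from either segment, against 34.3% and 36.4% in kappa. Some of these overlaps come from J alignments extended past the germline J start with mismatches. Bases beyond the V end that continue the J start as its reverse complement were found in 10 of 51 clonotypes (19.6%, 95% interval 9.82 to 33.1) and 9 of 42 (21.4%, 10.3 to 36.8), with 2.83% and 2.90% of reads, and such a match of 1 base can arise by chance. In 8 and 7 of them there were at least 2 such bases. The joins below, with those bases in capitals, show them for each J gene.
clonotype 11, IGLV1-IGLJ1: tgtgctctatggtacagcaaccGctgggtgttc
clonotype 14, IGLV1-IGLJ1: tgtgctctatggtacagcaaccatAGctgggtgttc
clonotype 15, IGLV2-IGLJ2: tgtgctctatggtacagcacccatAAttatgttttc
clonotype 31, IGLV1-IGLJ3: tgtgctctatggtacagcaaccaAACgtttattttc
clonotype 42, IGLV3-IGLJ2: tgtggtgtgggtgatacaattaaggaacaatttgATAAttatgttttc
Clonotype 11 had 3402 reads (1.26%) in the iB-μMT library and 4511 (1.66%) in the B6 library, clonotype 14 had 964 and 1690 reads, and clonotype 15 had 1671 and 745 reads (ratio 2.25). Clonotype 42 was found in the iB-μMT mouse alone with 150 reads.

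Trimming varied by V gene. The median number of bases removed from the IGLV1 end was 3 in both mice, with a maximum of 12 in the iB-μMT library and 10 in the B6 library. The IGLV2 end, which the alignments place 2 bases short of the IGLV1 end, lost at most 3 bases in the iB-μMT library and 2 in the B6 library. If the IGLV2 end is in fact longer, these losses and the intact ends below are miscounted, which was not tested. The IGLV3 end lost a median of 2 bases in the iB-μMT library and 3 in the B6 library. By the alignment positions an intact V end was found in 15 of 51 and 12 of 42 clonotypes.

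The stop codons in the lambda joins lay almost all in the intact IGLV3 end. A stop was present in 4 clonotypes of the iB-μMT mouse against 2 of the B6 mouse, with 0.214% and 0.242% of reads. Their sequences, with the stop codon in capitals, show its place.
clonotype 22, IGLV3-IGLJ2: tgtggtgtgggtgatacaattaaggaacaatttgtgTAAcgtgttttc
clonotype 36, IGLV3-IGLJ2: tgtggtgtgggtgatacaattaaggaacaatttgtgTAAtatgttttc
clonotype 46, IGLV3-IGLJ1: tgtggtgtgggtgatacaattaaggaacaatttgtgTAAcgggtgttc
clonotype 53, IGLV3-IGLJ2: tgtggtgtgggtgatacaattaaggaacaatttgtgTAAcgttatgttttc
clonotype 49, IGLV1-IGLJ1: TGAggcaatggtacagcaacatgggtgttc
Clonotype 22 was in both mice, with 264 reads in the iB-μMT library and 474 in the B6 library. Clonotype 36 (183 reads) was in the B6 mouse alone, and clonotypes 46 (135 reads), 53 (85 reads) and 49 (94 reads) were in the iB-μMT mouse alone. All untrimmed IGLV3 clonotypes, 3 in the iB-μMT library and 2 in the B6 library, had the stop, as their germline end spells it, and of the 9 trimmed IGLV3 clonotypes in each mouse 0 had a stop, a share that so few clonotypes bound only weakly. Clonotype 3, the main IGLV3 join, was trimmed by 1 base, and the first base of the J part turned this codon into another. All 93 clonotypes were in frame, as the tables list them, so joins out of frame could not be counted.

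**Figure D3:**
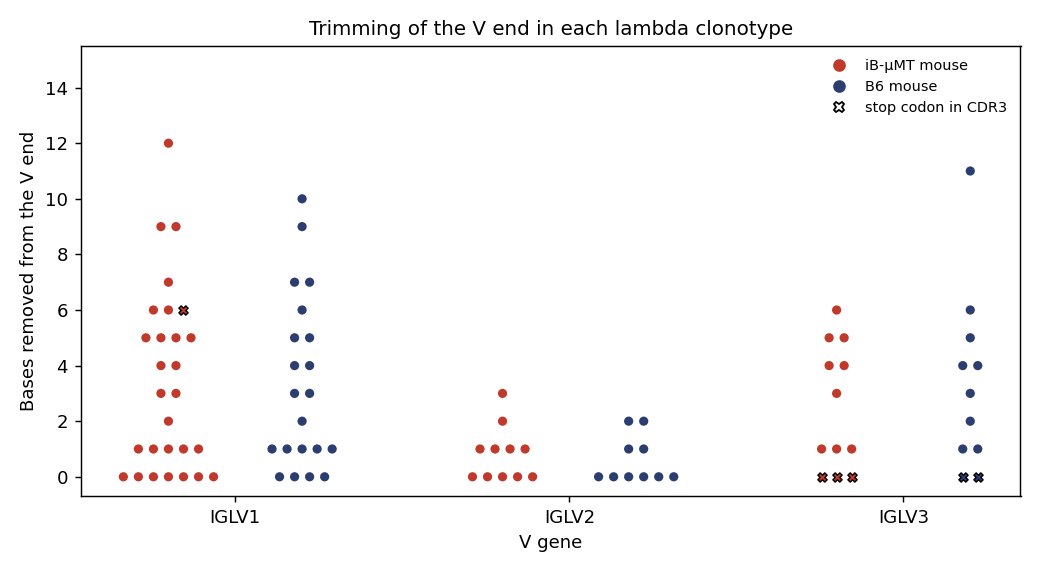
Bases removed from the V end (vertical) in each lambda clonotype, by V gene (horizontal) and mouse, where each point is a clonotype and crosses mark a stop codon in CDR3. The crosses of IGLV3 all lie at 0 removed bases, 3 in the iB-μMT library and 2 in the B6 library, and the remaining cross is an IGLV1 clonotype of the iB-μMT mouse.

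CDR3 length split by V gene and was similar in the mice. The median was 33 bases (11 codons) in both, with a range of 24 to 51 and a mean of 35.4 ± 6.71 (SD over 51 clonotypes) and 35.9 ± 6.02 (SD over 42 clonotypes). IGLV1 and IGLV2 joins spanned 24 to 36 bases and IGLV3 joins 39 to 51. Clonotypes of 33 bases numbered 17 in each mouse and held 82.2% and 85.6% of reads. They were 14 of the 28 shared clonotypes, 3 of the 23 found in the iB-μMT mouse alone and 3 of the 14 found in the B6 mouse alone.

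**Figure D4:**
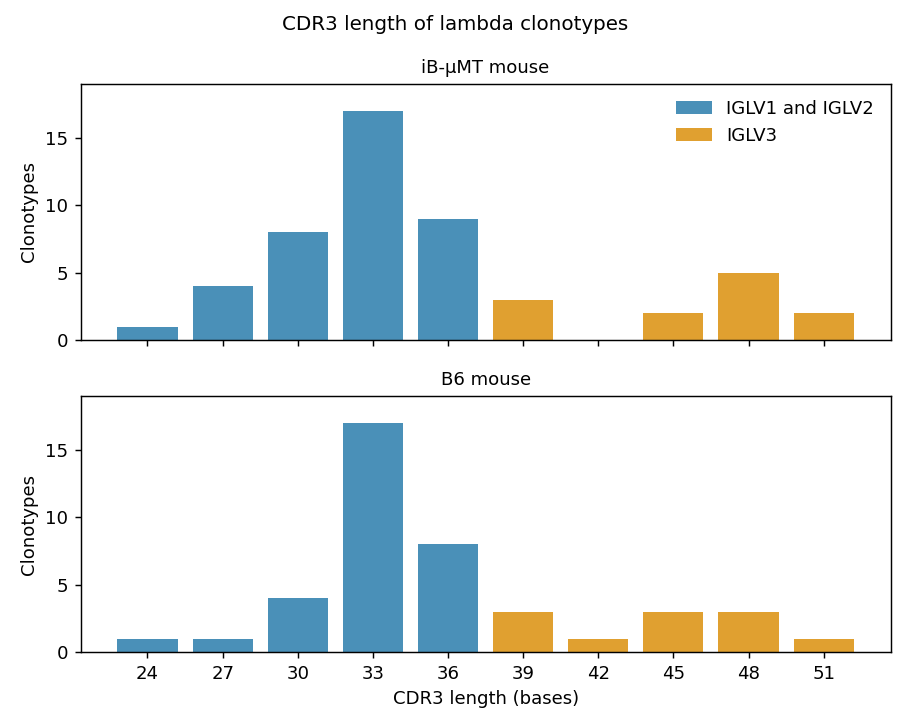
Number of lambda clonotypes (vertical) at each CDR3 length in bases (horizontal) in the iB-μMT mouse (top) and the B6 mouse (bottom), coloured by V gene. Both peak at 33 bases with 17 clonotypes, and IGLV3 clonotypes form a separate group from 39 to 51 bases.

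Different joins could encode the same CDR3. The 51 and 42 clonotypes encoded 44 and 38 distinct amino acid sequences, of which 24 were found in both mice, each with the same V and J genes. Several nucleotide sequences encoded 7 of them in the iB-μMT library (14 clonotypes, 46.4% of reads) and 4 in the B6 library (8 clonotypes, 50.3% of reads). The most abundant amino acid sequence was encoded by clonotypes 1 and 5, which together held 38.7% of reads in the iB-μMT library and 46.2% in the B6 library. Among the 23 clonotypes found in the iB-μMT mouse alone, clonotype 12 was the single clonotype whose amino acid sequence the B6 mouse also had.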

How the data were processed

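RNA of the sorted cells was made into libraries by rapid amplification of cDNA ends and sequenced on a MiSeq, and the authors assembled and exported clonotypes by chain with MiXCR (version 3.0.13). The submitters' processing notes name bcl2fastq and mm10. The values the authors deposited per clonotype were its read count, the fraction of the table's reads it held, and a score, the lowest base quality in CDR3. Counts were used as deposited and shares recomputed from them, at 269712 and 271108 lambda reads. The best V, J and C hits were used, and trimmed, inserted, overlapping and palindromic bases were read from the deposited alignment positions. The members and lists were chosen with earlier results of these data known. Genes and combinations were all described, and clonotypes were named singly if among the 10 largest of a library, with a stop codon, or among the 3 largest read ratios in each direction; the other clonotypes named were chosen after their values were seen. Ratios above 2 were counted as calls. Alternatives changed the read minimum, the merging of near-identical clonotypes (1 mismatch, at least 10 times fewer reads), the identity rule and the weighting. Python 3.11.15, NumPy 2.4.6, pandas 2.3.3, SciPy 1.17.1 and Matplotlib 3.10.9 were used. In a test on simulated clonotypes 40 of 40 shared clonotypes, 120 of 120 insertion lengths and 20 of 20 errors were recovered. The alignment positions were written into the simulated clonotypes, which had no overlapping alignments or uncertain V ends. The errors were placed on clonotypes that would not themselves be merged. The test thus checks the code only, and not how well insertions or errors are told apart in real joins.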

Additional observations from a re-analysis of the deposited data

How the results depend on the processing

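The number of lambda clonotypes lay between 41 and 51 in the iB-μMT mouse and between 37 and 42 in the B6 mouse under all alternatives run, and the number found in both mice between 24 and 28. The weighting and a few other choices turned the sign of some differences between the mice. With each clonotype counted once, clonotypes found in both mice were 54.9% and 66.7% in the iB-μMT and B6 mice, respectively, and IGLV1-IGLJ1-IGLC1 was 39.2% and 38.1%, so that it was no longer lower in the iB-μMT mouse; the sign turned for IGLV3-IGLJ2-IGLC2 too (19.6% and 23.8%). Without the largest clonotype IGLV1-IGLJ1-IGLC1 held 39.5% and 48.2% of reads, a remainder that still held clonotype 6. Shared by amino acids, V and J, clonotypes found in both mice held 99.2% of reads in the iB-μMT mouse, above the 98.6% of the B6 mouse, where by nucleotides the iB-μMT share was the lower (97.8%). Clonotypes with inserted bases were 0.557% and 0.619% when weighted by reads, which turned the order of 23.5% and 21.4%. Counting V alignments with a mismatch or gap, an alternative chosen after seeing the data, gave 33.3% and 35.7%, which turned it as well. Of 60 values for the other combinations, 26 moved outside the counting interval of the reads. That interval is narrow, since it treats reads as independent, so leaving it says little. Nearly all moves came from counting each clonotype once or leaving out the largest clonotype, which measure another quantity. The rest came from leaving out stop codons, as for IGLV3-IGLJ2-IGLC2 in the B6 mouse (9.96% against 10.2% of reads). The mean CDR3 length weighted by reads was 34.7 and 34.3 bases, the opposite order to the 35.4 and 35.9 bases over clonotypes. No paired analysis was possible because the labels carry no replicate numbers and each group had 1 library. The small number of clonotypes, and not the read depth, limits every interval over clonotypes.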
